A study of Mus musculus with 24 samples.

Results

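The cell cycle genes described here are 39 mouse genes, 11 that serve DNA replication, 26 that serve mitosis and 2 chromatin genes that dividing cells carry at high levels. They were chosen by symbol, and each was read from the probe of its own that was detected on at least 1 array and had the highest mean over all arrays. Of the 39 genes, 37 had a probe carrying their symbol alone and 35 had a detected one, among 19057 genes that the array names. Mki67 and Ccnb1 had no probe under that symbol, and the probes of Ccnb2 and Racgap1 were detected on 0 arrays. The 35 measured genes were thus all 11 replication genes, 22 mitosis genes and both chromatin genes.

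The arrays came from phagocytes of the tibialis anterior muscle of adult mice, sorted as CD11b+ Ly6G- NK1.1- cells. In untreated muscle 2 subsets were taken, F4/80high Ly6Clow cells that were Mgl1low or Mgl1high. Muscle taken 4 days after an injection of notexin, a snake toxin that destroys muscle fibres, gave 4 subsets, which were these same Mgl1low and Mgl1high gates, F4/80low Ly6Chigh cells (Ly6Chigh below) and F4/80low Ly6Clow cells (F4/80low below). The strains were C57Bl/6, called WT, and 3 deficient ones, which lacked Cx3cr1 (Cx3cr1-/-), Ccl2 (Ccl2-/-) or both (Cx3cr1-/- Ccl2-/-), so there were 16 arrays on day 4 and 8 of untreated muscle. The deficient strains lack the gene in all tissues, on a C57Bl/6J background. Each array held amplified RNA from 1 pool of 3 mice, from 1 sorting experiment, so a subset is replicated over strains alone (n = 4) and a strain has 1 array in each subset. Lists of 4 values below run in the order WT, Cx3cr1-/-, Ccl2-/-, Cx3cr1-/- Ccl2-/-.

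A cell that divides first copies its DNA and then parts the copies. Replication genes are switched on by E2F factors as the cell enters S phase, and their products load the MCM helicase on the DNA, supply the deoxynucleotides and hold the polymerase on its template. Mitosis genes follow in G2, largely through a complex that binds the cell cycle homology region of their promoters, often beside a CCAAT box, and their products build the spindle, check the attachment of chromosomes and cut the cell apart. Monocytes that leave the blood are mostly out of the cycle, whereas macrophages in tissue can divide where they are.

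To show what the 2 classes of gene carry upstream, the 250 bases before the start of 2 replication and 2 mitosis genes are given here from RefSeq (GRCm38.p6), written 5' to 3' on the strand of the gene. Capitals mark every match, on either strand, to the CCAAT box (CCAAT), to the core of the cell cycle homology region (TTTGAA or TTCGAA) or to the E2F motif (TTTCCCGC, TTTCGCGC, TTTGCCGC or TTTGGCGC). Mcm5 lies at chr8:75109259-75109508 on the plus strand. Mcm6 lies at chr1:128359706-128359955, Kif22 at chr7:127042421-127042670 and Cdca8 at chr4:124936918-124937167, all on the minus strand.
Mcm5: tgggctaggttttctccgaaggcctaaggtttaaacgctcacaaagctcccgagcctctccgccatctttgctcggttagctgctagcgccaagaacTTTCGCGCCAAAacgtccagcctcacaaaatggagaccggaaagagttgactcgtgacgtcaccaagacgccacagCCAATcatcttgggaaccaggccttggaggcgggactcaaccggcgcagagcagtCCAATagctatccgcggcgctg
Mcm6: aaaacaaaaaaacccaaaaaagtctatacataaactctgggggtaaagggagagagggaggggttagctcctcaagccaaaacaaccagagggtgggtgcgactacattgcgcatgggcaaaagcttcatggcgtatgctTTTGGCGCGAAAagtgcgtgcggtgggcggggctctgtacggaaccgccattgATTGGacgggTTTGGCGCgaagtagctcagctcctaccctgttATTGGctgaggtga
Kif22: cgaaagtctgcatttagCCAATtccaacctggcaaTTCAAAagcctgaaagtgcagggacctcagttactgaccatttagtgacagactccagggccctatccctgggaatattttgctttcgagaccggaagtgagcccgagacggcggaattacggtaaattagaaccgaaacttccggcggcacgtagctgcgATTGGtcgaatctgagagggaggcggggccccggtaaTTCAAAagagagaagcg
Cdca8: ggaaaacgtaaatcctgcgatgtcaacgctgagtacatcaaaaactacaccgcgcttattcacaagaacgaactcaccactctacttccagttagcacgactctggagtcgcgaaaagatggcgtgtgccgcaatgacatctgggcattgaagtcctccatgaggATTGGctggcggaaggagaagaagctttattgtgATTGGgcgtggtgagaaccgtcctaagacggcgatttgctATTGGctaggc
Mcm5 and Mcm6 held 2 and 3 E2F matches, of which 2 on opposite strands overlap in each gene, and Kif22 held 2 cores of the cell cycle homology region, both read on the minus strand of the gene. Cdca8 held 3 CCAAT boxes and neither of the other words in the stretch shown. In the longer window counted below, Cdca8 held 4 CCAAT boxes and 1 core of the cell cycle homology region.

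The same words were counted in windows of 250 bases before and 50 after the start, which RefSeq gave for 33 of the 39 genes. The CCAAT box was in 87.9% of these 33 windows, against 37.9% of 27025 windows of all genes. The core of the cell cycle homology region was in 17 of 21 mitosis windows and 2 of 10 replication windows, against 19.4% of all windows. The E2F motif was in 4 of 10 replication windows and 1 of 21 mitosis windows, against 2.32% of all. The 2 classes thus differ in the words they carry. A match describes the letters only and shows no binding.

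The number of detected probes ran from 7054 to 18289 per array. It was under 12000 on 4 arrays, those of F4/80low cells of Cx3cr1-/- and Cx3cr1-/- Ccl2-/- mice, of Mgl1high cells of Cx3cr1-/- mice on day 4 and of Mgl1low cells of untreated Ccl2-/- mice, called the weak arrays below. No 2 arrays held identical values. The gates were met in Ly6c1, at a mean log2 intensity of 9.41 in Ly6Chigh cells and at most 6.76 in the other groups, in Clec10a (Mgl1), at 13.28 and 13.79 in the Mgl1high groups and at most 12.28 elsewhere, and in F4/80low cells in Adgre1 (F4/80), at 8.25. Adgre1 was at 11.02 in Ly6Chigh cells, which were gated as low for its protein. The Cx3cr1 probe read 7.56, 4.91, 6.41 and 5.02 in Ly6Chigh cells and 6.64, 5.32, 7.04 and 4.96 in Mgl1low cells on day 4, lower in both Cx3cr1-deficient strains. In F4/80low cells it read 6.21, 7.21, 6.64 and 6.46 and in Mgl1high cells 6.58, 6.77, 5.80 and 5.35, so there the array labelled Cx3cr1-/- was not lower than WT, and in untreated muscle it was below background on most arrays. The Ccl2 probe was no lower in Ccl2-deficient arrays (9.86 in Ly6Chigh cells of the array labelled Ccl2-/-, 8.76 in WT), and where it lies on the targeted gene is not known here, so it checks nothing.

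Ly6Chigh cells had the lowest mean level of the cell cycle genes on day 4 in 3 of 4 strains, and in Cx3cr1-/- mice the weak F4/80low and Mgl1high arrays had lower replication genes. Their mean log2 intensity over the replication genes was 6.39 ± 0.08 (SD, n = 4), and it was 7.24 ± 0.85 in F4/80low, 7.60 ± 0.74 in Mgl1low and 7.30 ± 0.79 in Mgl1high cells on day 4. Over the mitosis genes Ly6Chigh cells had 5.32 ± 0.09, and F4/80low, Mgl1low and Mgl1high cells had 6.31 ± 0.34, 6.32 ± 0.40 and 6.17 ± 0.44. Untreated muscle lay between them, at 7.11 ± 0.40 and 5.89 ± 0.18 in Mgl1low and 6.63 ± 0.34 and 5.50 ± 0.13 in Mgl1high cells for replication and mitosis genes. The spread between strains was thus several times as wide in the Ly6Clow subsets of day 4 as in Ly6Chigh cells. An array of Ly6Chigh cells had 14 to 20 of the 35 genes above background, and an array of Mgl1low cells on day 4 had 29 to 34. In sorted pools, fewer cycling cells and less RNA of these genes per cell cannot be told apart.

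**Figure D1:**
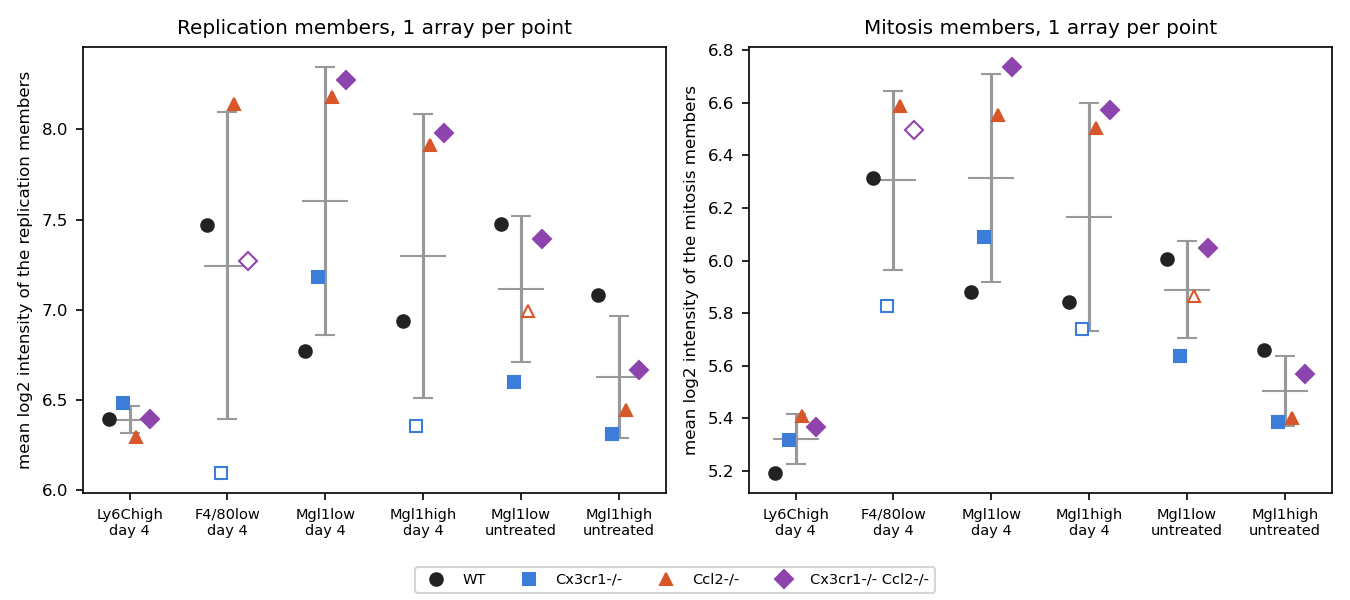
Mean log2 intensity of the replication genes (left) and the mitosis genes (right), with 1 point per array, symbols for the 4 strains, and bars for the mean ± SD of each group. Open symbols are the 4 weak arrays with fewer than 12000 detected probes. The 4 Ly6Chigh arrays lie close together at 6.29 to 6.48 and 5.19 to 5.41, and in Mgl1low and Mgl1high cells on day 4 both Ccl2-deficient arrays lie above the other 2.

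The 2 classes moved together. Over the 24 arrays the replication mean and the mitosis mean had a Pearson correlation of 0.908, which describes arrays that share strains, pools and a normalization. With the number of detected probes the replication mean correlated at 0.228 and the mitosis mean at -0.05. Ly6Chigh cells had the lowest of the 6 group means for 23 of the 35 genes, against 12.6% of all probes, and the highest for 0 of them. The highest group mean was in Mgl1low cells of day 4 for 14 genes and in F4/80low cells for 12, against 17% and 27.1% of all probes. Within single strains, the Ly6Chigh array was the lowest of the 4 day-4 arrays for 26 of 35 genes in WT (21% of all probes), 30 in Ccl2-/- (25.4%), 24 in Cx3cr1-/- Ccl2-/- (21.1%) and 14 in Cx3cr1-/- mice (17.8%), whose F4/80low and Mgl1high arrays are weak.

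**Figure D2:**
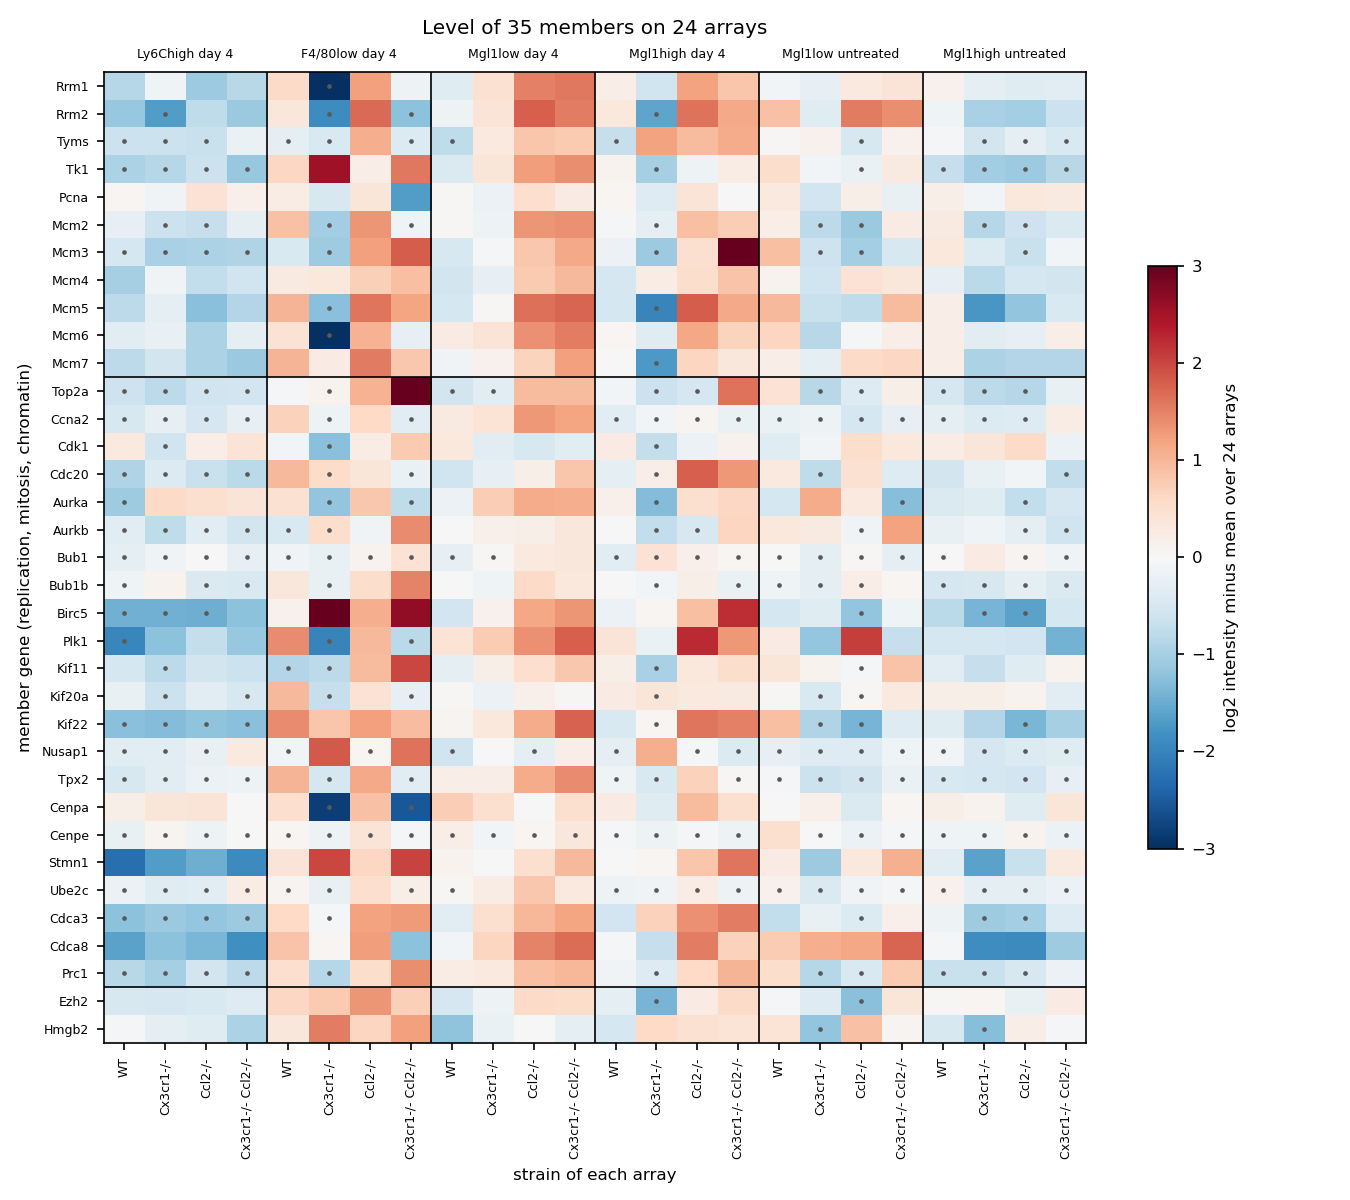
Log2 intensity of the 35 measured genes (rows, in the order replication, mitosis, chromatin) on the 24 arrays (columns, by group and strain), each gene minus its own mean over the arrays. Dots mark arrays on which the probe was not above background, and the colour scale ends at 3 log2 units in either direction. The Ly6Chigh columns are blue for most genes, and the Ccl2-deficient columns of Mgl1low and Mgl1high cells on day 4 are red for most.

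Of the replication genes, 6 of 11 had all 4 Mgl1low arrays of day 4 above all 4 Ly6Chigh arrays, namely Rrm2, Tk1, Mcm2, Mcm3, Mcm6 and Mcm7. With the mitosis genes this held for 19 of 35 genes, against 6.92% of the 29119 probes detected on at least 1 array, and the reverse for 0 genes. Rrm2, the small subunit of ribonucleotide reductase, read 5.42, 4.89, 5.80 and 5.45 in Ly6Chigh cells and 6.42, 6.95, 8.37 and 8.10 in Mgl1low cells. Mcm6, a subunit of the replicative helicase, read 8.81, 8.89, 8.16 and 8.84 in Ly6Chigh and 9.37, 9.51, 10.50 and 10.66 in Mgl1low cells. Mcm2, another helicase subunit, read 5.32, 4.91, 4.89 and 5.28 against 5.61, 5.41, 6.88 and 6.95. In all 3 genes the lowest Mgl1low array was still above the highest Ly6Chigh array, and both Ccl2-deficient strains were at the top of the Mgl1low arrays. None of them passed the test of Mgl1low against Ly6Chigh cells over all probes (Rrm2 2.07 ± 0.73 log2, SE, adjusted p = 0.384, limma; Mcm6 1.33 ± 0.80, 0.790; Mcm2 1.12 ± 0.48, 0.540).

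In the other subsets of day 4 the weak arrays were the low ones for these genes. Rrm2 read 6.91, 4.67, 8.27 and 5.35 in F4/80low and 6.89, 4.98, 8.19 and 7.71 in Mgl1high cells. Mcm6 read 9.56, 4.85, 10.16 and 8.86 in F4/80low and 9.18, 8.75, 10.27 and 9.79 in Mgl1high cells. Mcm2 read 6.46, 4.52, 6.90 and 5.44 and then 5.52, 5.31, 6.48 and 6.31. In each of the 3 genes the Ccl2-/- array was the highest of its subset, and the arrays overlapped with those of Ly6Chigh cells through the weak ones alone. Mcm5, a further helicase subunit, read 8.38, 6.10, 8.97 and 8.53 in F4/80low and 6.83, 5.37, 9.17 and 8.49 in Mgl1high cells, with Ccl2-/- again at the top.

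Pcna, the clamp that holds the polymerase on DNA, was level across the subsets. It read 8.31, 8.13, 8.68 and 8.40 in Ly6Chigh cells, 8.28, 8.08, 8.74 and 8.48 in Mgl1low cells and 8.31, 7.86, 8.62 and 8.24 in Mgl1high cells, with the groups overlapping and a difference of 0.01 ± 0.37 log2 between Mgl1low and Ly6Chigh cells. In F4/80low cells it read 8.45, 7.76, 8.60 and 6.56, where the lowest values are from the weak arrays. Tk1, thymidine kinase of the salvage pathway, was on no Ly6Chigh array above background (4.83, 4.92, 5.13 and 4.65) and read 6.40, 8.33, 5.97 and 7.36 in F4/80low cells. It was higher there by 2.13 ± 0.48 log2, and at least 3.36-fold (adjusted p = 0.0184). For such a bound, a dim array counts with the lowest signal detected on it unless its own value is higher. The highest F4/80low values of Tk1 were from the weak arrays, and without the weak arrays limma gave 1.31 ± 0.39 log2 (adjusted p = 0.0669). Tk1 read 5.36, 6.15, 7.04 and 7.18 in Mgl1low cells, also with no overlap with Ly6Chigh cells. Mcm7, a helicase subunit, rose from 5.96, 6.19, 5.80 and 5.63 in Ly6Chigh to 7.76, 6.99, 8.29 and 7.55 in F4/80low cells (1.75 ± 0.45 log2, adjusted p = 0.0320).

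Of the mitosis genes, Stmn1 differed most evenly between the subsets. It encodes stathmin, which destabilises microtubules. It read 6.01, 6.61, 6.81 and 6.36 in Ly6Chigh cells, 8.65, 10.27, 8.89 and 10.30 in F4/80low cells, 8.38, 8.29, 8.75 and 9.23 in Mgl1low cells and 8.25, 8.33, 9.10 and 9.87 in Mgl1high cells. No array of another subset reached down to the Ly6Chigh arrays. Stmn1 was the 1 gene that passed the test in all 3 subsets against Ly6Chigh cells, by 3.08 ± 0.43 log2 in F4/80low (adjusted p = 0.000635), 2.22 ± 0.43 in Mgl1low (0.0346) and 2.44 ± 0.43 in Mgl1high cells (0.00406). Its highest F4/80low values were from the weak arrays. Without the weak arrays limma gave 2.32 ± 0.38 log2 in F4/80low (adjusted p = 0.00209) and 2.62 ± 0.33 in Mgl1high cells (0.000123).

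Birc5, the survivin gene, whose product sits in the chromosomal passenger complex with the Aurora B kinase, read 4.99, 4.99, 4.98 and 5.21 in Ly6Chigh cells, with only the last above background. It read 6.57, 9.69, 7.52 and 9.10 in F4/80low, 5.86, 6.57, 7.60 and 7.75 in Mgl1low and 6.27, 6.50, 7.34 and 8.66 in Mgl1high cells. All these arrays were above the 4 Ly6Chigh arrays. The difference was called in F4/80low cells (3.18 ± 0.63 log2, adjusted p = 0.00968) and not in Mgl1high (2.15 ± 0.63, 0.0823) or Mgl1low cells (1.90 ± 0.63, 0.332). Cdca8, which encodes borealin of the same complex, read 5.80, 6.18, 6.03 and 5.57 in Ly6Chigh and 7.33, 8.06, 8.89 and 9.08 in Mgl1low cells, with no overlap and a difference of 2.45 ± 0.54 log2 that missed the threshold (adjusted p = 0.0691).

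Kif22, a chromosome-bound kinesin, and Cdca3, which takes part in the degradation of a mitotic inhibitor, were on no Ly6Chigh array above background. Kif22 read 4.86, 4.81, 4.89 and 4.86 there, 7.52, 6.94, 7.34 and 7.03 in F4/80low, 6.20, 6.42, 7.22 and 7.87 in Mgl1low and 5.64, 6.17, 7.71 and 7.63 in Mgl1high cells. It was higher by at least 3.84-fold in F4/80low (2.35 ± 0.44 log2, adjusted p = 0.00646) and at least 2.86-fold in Mgl1high cells (1.93 ± 0.44, 0.0242), and in Mgl1low cells the 2.07 ± 0.44 log2 missed the threshold (0.0619). Cdca3 read 4.98, 5.08, 5.03 and 5.12 in Ly6Chigh, 6.79, 6.16, 7.41 and 7.48 in F4/80low and 5.63, 6.89, 7.57 and 7.74 in Mgl1high cells. It was at least 3.22-fold higher in Mgl1high cells (1.91 ± 0.44 log2, adjusted p = 0.0259) and in F4/80low cells (1.91 ± 0.44, 0.0203). For both genes the Ly6Chigh arrays lay close together and below every other day-4 array.

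Top2a and Cdk1, both widely read as signs of division, gave less. Top2a, the topoisomerase that untangles sister chromatids, was above background on 0 of 4 Ly6Chigh arrays and on 7 of the other 12 arrays of day 4. It read 4.70, 4.53, 4.73 and 4.74 in Ly6Chigh cells, 5.27, 5.42, 6.38 and 8.35 in F4/80low, 4.78, 5.0, 6.27 and 6.28 in Mgl1low and 5.24, 4.67, 4.83 and 6.96 in Mgl1high cells. The highest value was from Cx3cr1-/- Ccl2-/- mice in every Ly6Clow subset, whereas in Mgl1high cells the Ccl2-/- array was below WT. The gene was detected on fewer than 8 day-4 arrays and so was not tested. Cdk1, the kinase that drives entry into mitosis, read 6.19, 5.30, 6.11 and 6.30 in Ly6Chigh and 6.21, 5.59, 5.41 and 5.55 in Mgl1low cells, where it lay the lower (-0.29 ± 0.39 log2). A second Cdk1 probe, detected on 9 arrays, had a mean of 4.86 in Ly6Chigh and 5.85 in Mgl1low cells, so the 2 probes of this gene disagree. The 3 other probes of Mcm6 each had a higher mean in Mgl1low (6.98, 5.86 and 7.03) than in Ly6Chigh cells (5.49, 5.11 and 5.36). They were also higher in F4/80low cells (7.60, 5.92 and 6.61), where the chosen probe was lower (8.36 against 8.67), so the Mcm6 probes disagree on F4/80low cells. The 3 Birc5 probes gave the same order of day-4 subsets.

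**Figure D3:**
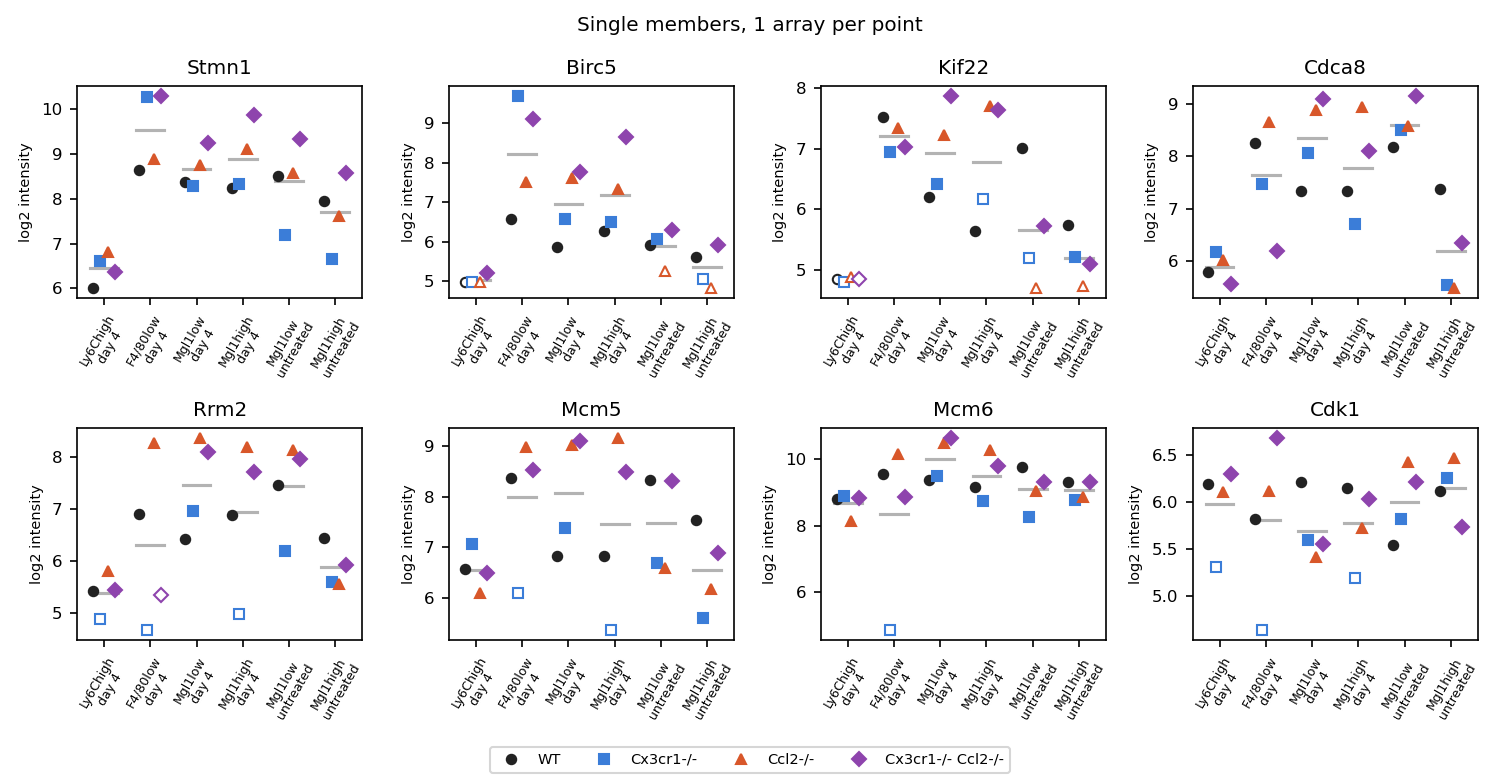
Log2 intensity of 8 genes by group, with 1 point per array, symbols for the 4 strains and a grey line for the group mean. Open symbols are arrays on which the probe was not above background. Stmn1, Birc5, Kif22 and Cdca8 are low on all 4 Ly6Chigh arrays, Rrm2 and Mcm5 split by Ccl2 status in Mgl1low cells on day 4, and Cdk1 shows neither pattern.

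Both chromatin genes had their highest group mean in F4/80low cells. The lowest was in Ly6Chigh cells for Ezh2, as for Birc5, Kif22, Stmn1 and Cdca3, and in Mgl1low cells of day 4 for Hmgb2. Ezh2, the methyltransferase of the Polycomb complex, read 5.55, 5.53, 5.57 and 5.66 in Ly6Chigh and 6.65, 6.81, 7.36 and 6.74 in F4/80low cells, and it rose there (1.31 ± 0.37 log2, adjusted p = 0.0454). Its other 2 probes had means of 5.15 and 5.45 in F4/80low cells against 5.04 and 5.14 in Ly6Chigh cells, and both were highest in Mgl1low cells of day 4 (5.93 and 5.73), so the probes of Ezh2 disagree on the order of the subsets. Hmgb2, a DNA-bending chromatin protein, read 6.32, 6.09, 6.00 and 5.40 in Ly6Chigh, 6.69, 7.88, 7.0 and 7.59 in F4/80low and 5.16, 6.14, 6.34 and 6.10 in Mgl1low cells. F4/80low cells were above both other subsets on every array, by 1.34 ± 0.36 log2 over Ly6Chigh cells (adjusted p = 0.0363), and Mgl1low cells were 1.35 ± 0.36 log2 below F4/80low cells (adjusted p = 0.0230). The highest F4/80low values of Hmgb2 were from the weak arrays, and without the weak arrays limma gave 0.89 ± 0.36 log2 over Ly6Chigh cells (adjusted p = 0.183). Hmgb2 was the only member called in Mgl1low against F4/80low cells, where 4.3% of all probes were called lower, and none was called there without the Cx3cr1-/- or without the Cx3cr1-/- Ccl2-/- arrays.

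Over all the genes, the test gave few calls for Mgl1low cells. For the 15320 probes that were detected on at least 8 of the 16 day-4 arrays, which held 28 of the 35 genes, limma called 1 gene higher in Mgl1low (0.163% of all probes), 3 in Mgl1high (1.02%) and 8 in F4/80low than in Ly6Chigh cells (1.73%), and 0 genes lower. The 3 comparisons share the Ly6Chigh arrays. Of the 28 genes, 10 were detected on at most 1 Ly6Chigh array and so passed through the other subsets. Of the calls, 4 of 8 in F4/80low cells (Tk1, Birc5, Kif22 and Cdca3) and 2 of 3 in Mgl1high cells (Kif22 and Cdca3) were among these 10. As a description, the median difference of the tested genes was 1.16 log2 in Mgl1low, 0.85 in Mgl1high and 1.14 in F4/80low cells, and 0.00, -0.14 and -0.22 over all probes. Without a filter on the gene, the 35 genes had no overlap of the 4 arrays in 9 for Mgl1high (4.11% of all probes) and 12 for F4/80low cells (5.64%), all of them higher than in Ly6Chigh cells. For Mgl1high cells these were mitosis genes only, Cdc20, Birc5, Plk1, Kif20a, Kif22, Stmn1, Cdca3, Cdca8 and Prc1.

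Both the weak arrays and the strains bore on these counts. Without the weak arrays 13 genes were called higher in each of Mgl1low (2.91% of all probes), Mgl1high (4.61%) and F4/80low cells (2.11%). Among them were Rrm2, Mcm7, Birc5, Plk1, Kif22, Stmn1, Cdca3, Cdca8 and Prc1 in all 3 subsets. Of these, Birc5, Kif22, Cdca3 and Prc1 were detected on at most 1 Ly6Chigh array and so passed the filter through the other subsets. The same held for Tk1 and Tpx2 in Mgl1low, Mcm3 and Cdc20 in Mgl1high and Tpx2 in F4/80low cells. Plk1, the kinase that matures the spindle poles, then differed by 2.33 ± 0.38 log2 in Mgl1low, 2.56 ± 0.41 in Mgl1high and 2.45 ± 0.46 in F4/80low cells (adjusted p = 0.00279, 0.000942 and 0.00618). Hmgb2 and Tk1 were not among the 13 in F4/80low cells, a group that then holds 2 arrays. The 4 subsets of a strain came from 1 pool, and with the strain as a block 4 genes were called for Mgl1low and 6 for Mgl1high cells. Here and below, a count from an alternative fit shows how far the calls moved. Without a share of all probes beside it, such a count does not show whether the genes stand out. Leaving out any 1 strain left 0 calls for Mgl1low cells. For Mgl1high cells 0 were left without Ccl2-/- and without Cx3cr1-/- Ccl2-/- arrays, and the 8 calls for F4/80low cells became 1 without Cx3cr1-/- Ccl2-/-, 4 without Ccl2-/- and 5 without Cx3cr1-/- arrays.

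Across the 4 day-4 subsets at once, 7 of the 28 genes differed (Tk1, Birc5, Kif22, Stmn1, Cdca3, Cdca8 and Hmgb2), against 10.4% of all probes. The count was 13 with the strain as a block, 17 of 29 without the weak arrays, and 1 without Ccl2-/- and 1 without Cx3cr1-/- Ccl2-/- arrays. Among the 3 Ly6Clow subsets no gene but Hmgb2 was called. In Mgl1high against Mgl1low cells on day 4, limma called 0 genes, with 0 at an unadjusted p under 0.05, and 0.268% of all probes. In Mgl1high against F4/80low cells it called 0 genes, with 3 at an unadjusted p under 0.05, and 5.88% of all probes. In this and later paragraphs a share of all probes is of adjusted calls. No such share is given for counts at an unadjusted p. The intervals were wide, as in Rrm2, where the SE of a difference between subsets was 0.73 log2 units.

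F4/80low cells differed from the others in markers of another cell type as well. The summed level of 8 dendritic cell genes was 12.94 to 14.06 log2 on the F4/80low arrays and 10.67 to 12.02 on those of Ly6Chigh and Mgl1low cells of day 4. Ccr7, the receptor that brings dendritic cells to lymph nodes, was detected on all 4 F4/80low arrays, at a mean of 9.27, and on none of the Ly6Chigh arrays. Whether those cells carried the cell cycle transcripts was not tested.

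Against Ly6Chigh cells, genes of the same pathways that are not among the 39 were called in F4/80low cells alone. Of 20 tested other replication genes and 18 other mitosis genes, limma called 0 in Mgl1low against Ly6Chigh cells, with 5 and 8 at an unadjusted p under 0.05, and 0 in Mgl1high cells, with 1 and 1. Of all probes, 0.163% were called higher in Mgl1low, 1.02% in Mgl1high and 1.73% in F4/80low cells. In F4/80low cells it called 2 replication genes, Rfc4 of the clamp loader (1.22 ± 0.29 log2, adjusted p = 0.0223) and the DNA ligase gene Lig1 (1.70 ± 0.49, 0.0481), and the kinesin gene Kif4, which was at least 2.72-fold higher (1.74 ± 0.45, 0.0344). Foxm1, the factor that drives G2 and mitosis genes, read 5.41, 6.36, 6.21 and 5.63 in Ly6Chigh and 6.63, 8.16, 7.80 and 7.87 in F4/80low cells, a rise of 1.71 ± 0.45 log2 (0.0351). The condensin II gene Ncapg2 went the other way, at 7.73, 8.16, 7.18 and 7.67 in Ly6Chigh and 6.27, 4.74, 6.48 and 6.20 in F4/80low cells (-1.76 ± 0.38, 0.0145). Of 11 tested G1 cyclins, kinases and E2F genes and 13 cell cycle inhibitors, 0 were called in any subset against Ly6Chigh cells.

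In Mgl1low cells, injury did not raise the cell cycle genes in all strains. WT cells had lower replication genes on day 4 than in untreated muscle, with a mean difference of -0.71 log2 on average with 9 of 35 genes higher, and the other strains had higher ones, by 0.58 in Cx3cr1-/- (30 genes higher), 1.19 in Ccl2-/- (31) and 0.88 in Cx3cr1-/- Ccl2-/- mice (28). Mcm5, a helicase subunit, read 8.34, 6.69, 6.60 and 8.30 in untreated and 6.83, 7.39, 9.01 and 9.09 in injured muscle. The array of untreated Ccl2-/- cells is weak. Rrm2 read 7.46, 6.20, 8.12 and 7.95 in untreated and 6.42, 6.95, 8.37 and 8.10 in injured muscle, and was thus lower on day 4 in WT alone. With 1 array per strain these are values without a test.

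Over the 4 strains, 0 of 27 tested genes differed between day-4 and untreated Mgl1low cells in limma, with 5 at an unadjusted p under 0.05, although 15.6% of all probes were called. Without WT arrays 5 genes were called, without Cx3cr1-/- arrays 1 and without the weak array 1, which was Plk1 (1.44 ± 0.42 log2, adjusted p = 0.0284). With arrays scaled on their median in place of quantile normalization, which put the median of all probes at 0.65 log2, 13 genes were called and their median difference was 1.02. The 4 arrays of day 4 were above all untreated arrays in 2 of 35 genes, against 11.3% of all probes, and these were Ccna2, the cyclin of S phase and G2, and Tpx2, a spindle assembly factor. Ccna2 read 5.06, 5.11, 4.72 and 5.01 in untreated cells, all below background, and 5.53, 5.66, 6.56 and 6.44 on day 4. In these Mgl1low cells the summed T cell genes were at 8.98 to 9.58 log2 in untreated and 6.76 to 7.19 in injured muscle. This gap came from Cd2 (means 8.94 and 5.33), and Cd3e, Cd3d and Cd8a were detected on at most 1 array of either group. The dendritic cell genes were at 12.27 to 12.61 and 10.67 to 12.01, and the part of other cells was not tested.

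Other genes of the pathway were called in both directions in Mgl1low cells. Ncapg2 rose most (3.17 ± 0.25 log2, adjusted p = 3.51e-06), from 5.88, 4.76, 4.62 and 5.47 to 8.55, 8.26, 8.22 and 8.39. Also higher were the replication licensing gene Cdt1 (1.89 ± 0.44, 0.0103), the maintenance methyltransferase gene Dnmt1 (1.88 ± 0.34, 0.00230) and the G1 kinase gene Cdk6, by at least 1.97-fold (1.45 ± 0.31, 0.00694). The cyclin gene Ccnd2 fell from 7.03, 6.70, 7.74 and 7.29 to 4.71, 4.75, 5.19 and 4.85 (-2.31 ± 0.27, 9.72e-05). On day 4 Ccnd2 was above background on the Ccl2-/- array alone. In all, 3 of 19 other replication genes, 3 of 18 other mitosis genes, 4 of 12 G1 genes and 3 of 13 inhibitors were called, the inhibitors all lower. With 15.6% of all probes called in this comparison, the replication and mitosis counts were at the background.

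In Mgl1high cells 3 mitosis genes rose on day 4 and no replication gene was called, although 10 of the 11 replication genes had a positive difference. Birc5 read 5.62, 5.05, 4.83 and 5.91 in untreated and 6.27, 6.50, 7.34 and 8.66 in injured muscle, with no overlap (1.84 ± 0.39 log2, adjusted p = 0.0197). Stmn1 read 7.94, 6.66, 7.61 and 8.56 and then 8.25, 8.33, 9.10 and 9.87, higher in all 4 strains (1.19 ± 0.26, 0.0242). Cdca3 read 6.04, 5.14, 5.19 and 5.82 and then 5.63, 6.89, 7.57 and 7.74, higher in 3 of 4 strains and lower in WT (1.41 ± 0.35, 0.0404). These 3 were the calls among 27 tested genes, against 1.13% of all probes called higher. All 4 day-4 arrays lay above all untreated arrays in 4 of 35 genes, Bub1b, Birc5, Plk1 and Kif20a, against 3.65% of all probes. By strain the mean replication difference was -0.15 in WT, 0.04 in Cx3cr1-/- (a weak array), 1.47 in Ccl2-/- and 1.32 in Cx3cr1-/- Ccl2-/- mice, with 18, 21, 32 and 32 of 35 genes higher. Muscle fibre genes were at 9.20 to 10.65 log2 in untreated and 8.52 to 9.04 in injured Mgl1high cells, with no overlap, and their part was not tested.

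The calls in Mgl1high cells leaned on single strains. They were 6 without WT arrays and 0 without each of the other strains. Without the weak arrays they were 6 as well (Rrm2, Birc5, Plk1, Stmn1, Cdca3 and Cdca8), against 1.78% of all probes, and without the strain as a block 1. Whether the day-4 difference was larger in Mgl1high than in Mgl1low cells was tested by an interaction term, which called 0 of 27 genes, with 2 at an unadjusted p under 0.05, and 7.66% of all probes. Among other genes, Ncapg2 (2.01 ± 0.25 log2, adjusted p = 0.000944) and the E2F gene E2f2 (1.91 ± 0.25, 0.00130) rose and the antiproliferative gene Tob1 (-1.87 ± 0.29, 0.00399) and the quiescence factor gene Klf2 (-1.53 ± 0.25, 0.00501) fell.

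In untreated muscle 2 of 27 tested genes, Cdca8 and Rrm2, were called lower in Mgl1high than in Mgl1low cells. Cdca8 read 8.17, 8.50, 8.58 and 9.16 in Mgl1low and 7.37, 5.55, 5.49 and 6.34 in Mgl1high cells, with no overlap (-2.41 ± 0.47 log2 for Mgl1high against Mgl1low, adjusted p = 0.00499). Rrm2 read 7.46, 6.20, 8.12 and 7.95 against 6.44, 5.60, 5.55 and 5.93, lower in Mgl1high cells in every strain (-1.55 ± 0.44, 0.0451). No other tested gene was called, and 2.73% of all probes were called lower. The Mgl1low arrays were all above the Mgl1high arrays in 4 of 35 genes (Tk1, Aurkb, Bub1b and Cdca8), against 5.55% of all probes, and the reverse held for 0. Only 1 gene was called without WT arrays, without Ccl2-/- arrays or without the strain as a block, and 0 without Cx3cr1-/- Ccl2-/- arrays. Without the weak array Tk1 and Kif11 were called as well.

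Of 12 tested G1 genes 2 were called lower in untreated Mgl1high cells, against 2.73% of all probes, and 1 of 13 inhibitors was called higher. E2f2 read 7.30, 6.87, 7.35 and 7.07 in untreated Mgl1low and 5.61, 5.24, 5.09 and 5.40 in Mgl1high cells (-1.81 ± 0.25 log2, adjusted p = 0.000554). Ccnd2 was lower as well (-1.59 ± 0.27, 0.00245), and the cyclin-dependent kinase inhibitor gene Cdkn1c was higher in Mgl1high cells, at 6.55, 7.48, 6.59 and 6.72 against 4.91, 6.24, 5.17 and 5.17 (1.46 ± 0.32, 0.0114). The summed level of 4 detected T cell genes was 8.98 to 9.58 log2 on the untreated Mgl1low arrays and 7.68 to 8.47 on the Mgl1high arrays. Of them Cd2 made the gap (means 8.94 and 7.18), and Cd3e, Cd3d and Cd8a were detected on at most 1 array of either group. Eosinophil genes were at 7.31 to 8.72 and 6.71 to 6.89, fibroblast genes at 9.25 to 9.67 and 10.85 to 12.08, and macrophage genes at 12.99 to 13.50 and 14.30 to 14.49, also with no overlap. Of the eosinophil genes only Siglecf (means 7.14 and 5.01) was detected on more than 1 array of either group. The macrophage sum was led by Clec10a (12.28 and 13.79), the Mgl1 gene of the gate, so its gap follows the sorting. In that list Adgre1, Csf1r, Fcgr1, Mertk and Mrc1 were also higher in Mgl1high cells, and Itgam, Ly6c1 and Ccr2 were lower. Muscle fibre genes were at 7.95 to 9.39 and 9.20 to 10.65. The part of other cells in these differences was not tested.

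The strains parted most clearly by Ccl2, the monocyte chemoattractant. In Mgl1low cells on day 4 both Ccl2-deficient arrays (Ccl2-/- and Cx3cr1-/- Ccl2-/-) were above both other arrays for 30 of the 35 genes, all 11 replication genes and 18 of 22 mitosis genes among them, against 22.1% of all probes. For Mgl1high cells of day 4 the count was 21 (11.9% of all probes), and 26 without the weak Cx3cr1-/- array (29.5%). It was 11 for F4/80low (11.1%) and 9 for Ly6Chigh cells (22.5%), and in untreated muscle 9 for Mgl1low (15.7%) and 4 for Mgl1high cells (14.3%). As shares of the 35 genes these were 85.7% in Mgl1low cells on day 4, 31.4% in F4/80low and 25.7% in Ly6Chigh cells, so the Ly6Chigh share was near that of all probes. Without their weak arrays the counts were 29 for F4/80low cells, where 1 array a side remained and 51.7% of all probes did the same, and 18 for untreated Mgl1low cells (32.1%). In Mgl1low cells on day 4, Cdk1 alone had both Ccl2-deficient arrays below both others.

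Mcm5 showed the widest gap. It read 6.83 and 7.39 in Mgl1low cells of WT and Cx3cr1-/- mice and 9.01 and 9.09 in those of Ccl2-/- and Cx3cr1-/- Ccl2-/- mice. In Ly6Chigh cells the same strains read 6.57, 7.07, 6.10 and 6.49, with the Ccl2-deficient ones the lower. Rrm1, the large subunit of ribonucleotide reductase, read 7.81, 8.62, 9.66 and 9.74 in Mgl1low and 7.31, 8.02, 7.07 and 7.34 in Ly6Chigh cells. The gap between the 2 pairs of strains was thus seen in Mgl1low and not in Ly6Chigh cells for both genes. Pcna (8.28, 8.08, 8.74 and 8.48) had a smaller gap in Mgl1low cells, and Cdk1 (6.21, 5.59, 5.41 and 5.55) had none in that direction. Unlike Mcm5 and Rrm1, Pcna had both Ccl2-deficient arrays above both others in Ly6Chigh cells as well.

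When strains were compared over Ly6Chigh and Mgl1low cells together, few genes passed. Ccl2 deficiency (Ccl2-/- and Cx3cr1-/- Ccl2-/- against WT and Cx3cr1-/-) came with 3 of 30 tested genes higher, against 2.83% of all probes. They were Rrm2 (1.01 ± 0.25 log2, adjusted p = 0.0406), Plk1 (0.83 ± 0.19, 0.0286) and the Aurora A kinase gene Aurka (0.75 ± 0.17, 0.0292). Plk1 read 4.71, 5.43, 5.94 and 5.52 in Ly6Chigh and 7.06, 7.42, 8.02 and 8.44 in Mgl1low cells, with both Ccl2-deficient arrays on top in each. Aurka read 4.85, 6.48, 6.38 and 6.29 in Ly6Chigh cells, where WT alone was low, and 5.74, 6.64, 7.02 and 7.0 in Mgl1low cells. Ccl2-/- alone against the other 3 strains gave 0 calls in limma, with 4 at an unadjusted p under 0.05 and 0.714% of all probes. Each strain is 1 pool, so these p-values leave out the spread between mice.

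A fit of Ccl2 status within each subset, with 2 strains on either side, was added after the values had been seen. It called 12 of 30 genes higher in Ccl2-deficient Mgl1low cells, against 0.881% of all probes. Of these, 8 were replication genes, Mcm5 (1.94 ± 0.26 log2, adjusted p = 0.0115), Rrm2 (1.55 ± 0.26, 0.0220), Rrm1 (1.49 ± 0.30, 0.0381), Mcm2 (1.40 ± 0.23, 0.0192), Tk1, Mcm4, Mcm3 and Mcm6, and 4 were mitosis genes, Birc5 (1.46 ± 0.25, 0.0218), Cdca8, Kif22 and Tpx2. Of all 30 tested genes 28 were higher, with a median of 0.97 log2 against 0.00 over all probes, and Cdk1 and Cenpa were the lower ones. In Ly6Chigh cells 0 genes were called, with 1 at an unadjusted p under 0.05, although 4.31% of all probes were, and the median was 0.04. Of the 30 tested genes 12 were detected on at most 1 Ly6Chigh array and so passed the filter through Mgl1low cells. Tk1, Mcm3, Birc5, Kif22 and Tpx2 of the calls are among these 12, which could hardly show a difference in Ly6Chigh cells. The fit took 1 spread per gene over both subsets. Ly6Chigh arrays near background can thus make the Mgl1low p-values of such genes too small. The difference between the subsets was called for 0 genes and 0.00595% of all probes. At an unadjusted p under 0.05 there were 19 genes, with no share of all probes at that threshold to set beside them. For the 12 genes near background in Ly6Chigh cells, this contrast largely repeats the Mgl1low difference. For Mcm5 the difference between the subsets was 2.47 ± 0.37 log2 (unadjusted p = 2.80e-05, adjusted p = 0.172).

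**Figure D4:**
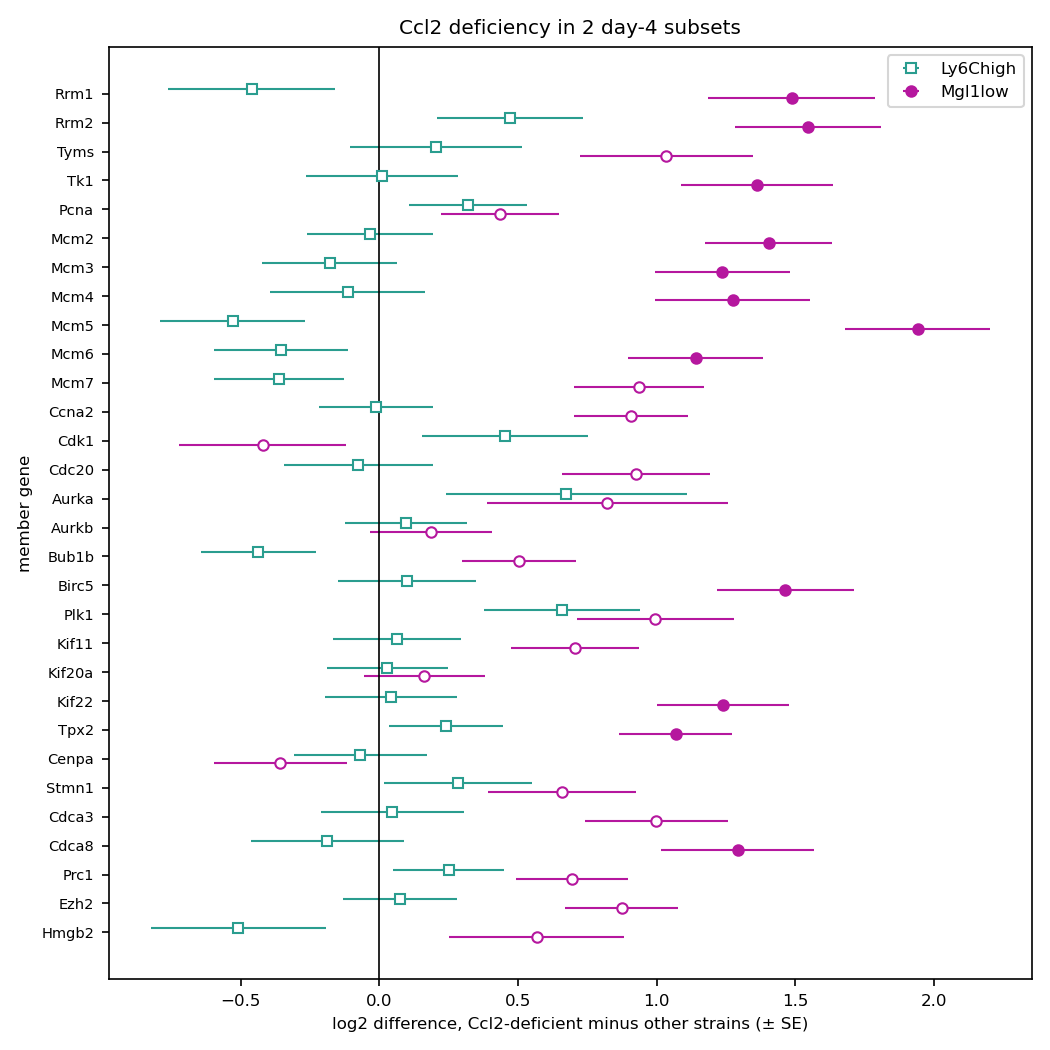
Difference in log2 intensity between Ccl2-deficient (Ccl2-/- and Cx3cr1-/- Ccl2-/-) and other strains (WT and Cx3cr1-/-) for the 30 tested genes, in Mgl1low (circles) and Ly6Chigh cells (squares) on day 4, with bars of 1 SE. Filled symbols passed the adjusted threshold. In Mgl1low cells 28 of 30 genes lie to the right of 0 and 12 are filled, and in Ly6Chigh cells the genes lie on both sides of 0 and none is filled. Of the 30 genes, 12 were detected on at most 1 Ly6Chigh array.

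These calls depended on which arrays were fitted. Fitted over all 16 day-4 arrays the same contrast called 0 genes and 0 probes. Leaving out 1 strain leaves a single array on 1 side of the contrast, so counts of those fits are not given. Most calls were lost without WT arrays and all without Ccl2-/- or without Cx3cr1-/- Ccl2-/- arrays, whereas more were made without Cx3cr1-/- arrays. The contrast called 7 genes when only the 8 arrays were normalized together. On the Mgl1low arrays the summed dendritic cell genes were at 10.67 to 10.87 log2 in Ccl2-deficient and 11.86 to 12.01 in the other strains, the muscle fibre genes at 7.76 to 7.83 and 8.19 to 8.45 and the fibroblast genes at 8.83 to 9.18 and 9.19 to 10.23. Flt3 and Ccr7 of the dendritic cells and Ckm and Myh4 of the fibres were on none of these arrays above background, and the part of other cells was not tested.

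Genes of the same pathways that are not among the 39 went with them in that fit. In Ccl2-deficient Mgl1low cells 5 of 19 other replication genes and 5 of 25 other mitosis genes were called higher, against 0.881% of all probes, and none lower. Uhrf1, which keeps DNA methylation through replication, read 6.58, 6.71, 8.72 and 8.73 (2.08 ± 0.28 log2, adjusted p = 0.0115), and Cdca7, which takes part in chromatin remodelling, read 5.79, 5.89, 7.30 and 7.80 (1.71 ± 0.22, 0.0115). Ccnd1, the cyclin that growth factors raise in G1, read 8.56, 8.95, 10.94 and 10.92 (2.17 ± 0.24, 0.00962). In both genes and in Ccnd1 the 2 pairs of strains were well apart. In Ly6Chigh cells Ccnd1 was higher as well, at 8.83, 9.40, 10.59 and 10.82 (1.59 ± 0.24, 0.00888), whereas none of the tested replication and mitosis genes was called there. Klf2 was lower in Ccl2-deficient cells of both subsets, at 7.33, 7.94, 6.46 and 6.55 in Mgl1low (-1.13 ± 0.23, 0.0388) and 7.40, 7.33, 6.28 and 6.27 in Ly6Chigh cells (-1.09 ± 0.23, 0.0260). Igf1, a growth factor gene, was lower in Ccl2-deficient Ly6Chigh cells (10.16, 9.98, 7.69 and 8.0; -2.22 ± 0.21, 0.00142).

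Cx3cr1 deficiency gave no such split in Mgl1low cells. Both Cx3cr1-deficient arrays of Mgl1low cells on day 4 were above both others for 1 of 35 genes, against 13.1% of all probes. In F4/80low cells both Cx3cr1-deficient arrays, which are weak, were below both others for 16 genes and above for 6, against 30.5% and 26.4% of all probes. Over Ly6Chigh and Mgl1low cells limma called 0 of 30 genes, with 1 at an unadjusted p under 0.05 and 0.0416% of all probes. The median difference was 0.13 log2, and 0.49 for Ccl2 deficiency in the same fit.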

How the data were processed

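Illumina WG-6 v2 arrays of 24 sorted muscle phagocyte samples were used, each a pool of 3 mice. Each deposited array holds an intensity per probe as scanned, an intensity that the authors had processed in GenomeStudio (version not stated) and a detection p-value. The deposited processed intensity differed from a quantile normalization of the scanned one by at most 0.0276 log2. The study's filter on background signals was given with no cut-off and was not applied here, whereas its choice of probes detected at p under 0.05 on 8 of 16 arrays was kept. From the scanned intensities, background was corrected and arrays quantile-normalized with neqc of limma 3.58.1 in R 4.3.3 (offset of 16), giving log2 values of 45281 probes, of which 34885 carry 1 symbol, 18 several and 10378 none. A probe was detected at p under 0.05 and tested if detected on at least 8 of 16 arrays, or 4 of 8.

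Groups came from the sample labels. Subsets were compared over the 16 day-4 arrays, day 4 with untreated over the 16 Mgl1low and Mgl1high arrays with strain as a block, and strains over the 8 Ly6Chigh and Mgl1low arrays of day 4, by lmFit and eBayes, called at a Benjamini-Hochberg adjusted p under 0.05 over all probes tested. The subsets of a strain came from 1 pool of mice. Over 24 pairs of arrays of the same strain, deviations from the group means had a median correlation of 0.162 (-0.00229 to 0.441), against -0.0618 in 72 pairs of different strains. The strain block is given beside the subset counts it moved. p-values of strain comparisons leave out the spread between mice, and 4 arrays a group limit the precision. Each fit took 1 spread per gene over all its arrays, so arrays near background can make a p-value too small.

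The genes and lists were chosen with earlier results of these data known. Values are given for Mki67, Ccnb1 (neither has a probe), Top2a, Cdk1, Birc5, Mcm2, Mcm6, Pcna, Rrm2 and the 5 genes with the largest called difference in each comparison and direction, and for up to 6 called pathway genes per comparison. Other genes named were chosen after their values were seen. Marker lists are given as log2 of summed intensities. The test was run on simulated data with 100 probes changed by 1 log2 unit and 100 by 2, among all tested probes. It recovered 7% and 75% for Mgl1low against Ly6Chigh cells (15320 probes), 27% and 93% for day-4 against untreated Mgl1low cells (15624), 88% and 100% for Ccl2-/- against the other strains (16807) and 53% and 100% for Ccl2 status within Mgl1low cells (16807). The simulated noise was independent between arrays, with no shared pools, weak arrays or spread between mice, so these shares hold for such noise alone. Alternatives were no background correction, median scaling, the authors' processed intensities, no filter, a filter of 75% of arrays, an intensity trend, a threshold of 0.10, other blocks, leaving out each strain, the methods' one-way test and, added after seeing the data, leaving out arrays with under 12000 detected probes. Promoter sequences and motif matches are from RefSeq (GRCm38.p6), with 33 of 39 genes matched by symbol.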

Additional observations from a re-analysis of the deposited data

Results flagged for a closer look

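Among 144 groups of 4 arrays, of 22 named genes and the replication and mitosis means, 8 had 1 array far from the other 3, as the gap to the nearest array over the range of the group. Chance flags about 1 in 20 groups, so this count is near what chance gives. In Ly6Chigh cells these were Mcm3 (gap 0.847, where all 4 arrays were below background and so have no order), Mcm6 (0.887, Ccl2-/- low at 8.16 against 8.81 to 8.89), Aurka (0.883, WT low at 4.85 against 6.29 to 6.48) and Birc5 (0.926, Cx3cr1-/- Ccl2-/- high at 5.21 against 4.98 to 4.99). In untreated Mgl1high cells they were Rrm1 (0.847, WT high at 8.29 against 7.79 to 7.87), Mcm7 (0.938, WT high at 6.95 against 5.80 to 5.87) and Plk1 (0.944, Cx3cr1-/- Ccl2-/- low at 5.24 against 6.09 to 6.14). In Mgl1high cells on day 4 Hmgb2 was low in WT (0.841, 5.84 against 6.77 to 6.94).

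The day-4 change differed between Mgl1high and Mgl1low cells, by limma's interaction term, for 3 pathway genes that are not among the 39. E2f2 was higher on day 4 by 1.91 log2 in Mgl1high and 0.23 in Mgl1low cells, a difference of 1.67 (adjusted p = 0.0231). Ccnd2 was lower on day 4 in both, by -0.89 in Mgl1high and -2.31 in Mgl1low cells, a difference of 1.42 (0.0428), and it was below background on all Mgl1high arrays of day 4. Csf2ra, a chain of the receptor for the growth factor GM-CSF, was at -0.11 in Mgl1high and -1.15 in Mgl1low cells, a difference of 1.05 (0.0394).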

How the results depend on the processing

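No call of a single gene turned its direction in 587 combinations of 40 calls and alternatives, and 386 kept the call. The 7 calls over all 4 subsets at once have no direction and could not turn, and settings in which a gene was not tested are left out. Counts of genes moved in many. The counts below stand without a share of all probes, so they show only how far the calls moved. They are given as Mgl1low, Mgl1high and F4/80low against Ly6Chigh cells, then all subsets at once, then day 4 against untreated. Without background correction, and with the authors' processed intensities, they were 0 (Mgl1low), 1 (Mgl1high), 3 (all subsets) and 1 (Mgl1low, day 4 against untreated), and 1 for Ccl2 deficiency over both subsets. With median scaling they were 4, 1 and 2, with 2 for Mgl1low against F4/80low, 13 and 0 for day 4 against untreated in Mgl1low and Mgl1high cells, 1 between untreated subsets, 3 (all lower) for the interaction with subset and 1 for the difference in Ccl2 effect between subsets; that scaling moved the median of all probes to between -1.16 and 0.92 log2. Without a filter they were 0, 1, 5 and 2, then 2 and 1 for day 4, 1 between untreated subsets, 0 for Ccl2 deficiency over both subsets and 2 within Mgl1low cells. With the stricter filter they were 1 (Mgl1high), 4 (F4/80low), 4 (all subsets) and 7 (Ccl2 status within Mgl1low cells). At an adjusted p under 0.10 they were 3 and 7, 1 for Mgl1high against F4/80low, 12 for all subsets, 4 and 7 for day 4 and 1 for the interaction.

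Without the weak arrays they were 13, 13 and 13, 0 for Mgl1low against F4/80low, 17 for all subsets, 1 and 6 for day 4 and 4 between untreated subsets. With the strain as a replicate block they were 4, 6 and 13 (Mgl1low, Mgl1high, all subsets). Without the replicate block, or with the pool as a random replicate block, day 4 in Mgl1high cells and the untreated comparison each gave 1. An intensity trend gave 1 for day 4 in Mgl1low cells. Ccl2 status within Mgl1low cells gave 7 when its 8 arrays were normalized alone and 0 when fitted over 16. The methods' one-way test gave 3 genes at p under 0.01 and 1 after Benjamini-Hochberg adjustment. Leaving out 1 strain gave 0 to 0, 0 to 3 and 1 to 6 against Ly6Chigh cells, 0 to 1 for Mgl1low and 0 to 0 for Mgl1high against F4/80low. It gave 0 to 0 for Mgl1high against Mgl1low on day 4, 1 to 6 for all subsets, and 0 to 5 and 0 to 6 for day 4. Between untreated subsets it gave 0 to 2 and for the interaction 0 to 0. For Ccl2 status within subsets the calls moved as well, in fits with a single array on 1 side. The causes were not tested. Genes below background on an array have no order there.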
